A study of Mus musculus with 7 samples.

Results

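The genes described here carry the symbols of cytosolic ribosomal proteins and were measured in RAW264.7 cells, a mouse macrophage-like line. Members were taken by gene symbol: Rpl or Rps with a number and the usual endings, and Rplp0 to Rplp2, leaving out the kinases whose symbols begin with Rps6k. This gave 44 of the 9999 named genes, by symbol 24 of the large subunit and 20 of the small subunit. Among them are 3 relatives of family genes (Rpl7l1, Rpl22l1 and Rps27l), which were counted by symbol alone. Each gene was represented by the probe set, a group of array probes for 1 transcript region, that had a single gene symbol and the highest mean signal. The 44 genes had 89 such probe sets, and 20 of them had more than 1. A further 29 symbols of the family occurred only on probe sets that also list other symbols, and these were not counted as members.

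The study compared 4 arrays labelled Gfi1 knockout (RAW GfI1-1 in the labels) with 3 arrays of wild-type cells, all from untreated cells at the time called T0. Gfi1 is a zinc finger repressor of transcription in blood cells. How the knockout was made, and whether the name means 1 clone, is not given in the sources used here, and the labels call the arrays biological replicates without naming separate cultures. The p-values below therefore describe array-to-array spread, part of which may be technical. The single Gfi1 probe set was higher in the arrays labelled knockout, at 4.47 ± 0.58 (SD, n = 4) on the log2 scale, against 2.83 ± 0.16 (SD, n = 3) in wild type, so it does not check the label, and its place in the gene with respect to the knockout site was not examined. All 10 macrophage markers looked at were measured, with mean signals from 6.30 to 13.05. Of these 8 were lower and 0 higher in knockout by the test described below (adjusted p under 0.05). Over all genes 21.6% were lower and 21.5% higher. The summed intensity of the 10 markers ran from 20456 to 21644 in knockout arrays, against 31548 to 31822 in wild-type arrays. Of the markers of other cells looked for, Pdgfrb (fibroblast, near the floor of the array) and Hba-a2 (erythroid) were measured. Both were lower in knockout by the same test. Whether these shifts play a part in the results below was not tested. RNA came from whole cultures, so fewer cells of a type and less RNA per cell cannot be told apart. Earlier inspection of these arrays had shown that knockout replicates 1 and 2 resemble each other, as do replicates 3 and 4, so values are given array by array.

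Cytosolic ribosomes consist of a small subunit, which reads the mRNA, and a large subunit, which joins amino acids. Each holds ribosomal RNA and a fixed set of proteins made in nearly equal numbers. Ribosomal protein mRNAs are among the most abundant in growing cells. In vertebrates most of them begin with an unbroken stretch of pyrimidines (C or T in the gene), the terminal oligopyrimidine tract, through which the kinase complex mTORC1 and the RNA-binding protein Larp1 control their translation together.

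The start-site windows of 7 members are printed here to show where the pyrimidine run the family is known for is present or absent, in 3 members that did not pass the test (Rps10, Rpl35 and Rps18) and in the 4 that passed it, as described below (Rps6, Rpl14, Rpl12 and Rpl7l1). Each window runs from 60 bases before to 25 bases after the annotated start in RefSeq GRCm38.p6, in the direction of transcription, and capitals mark runs of 7 or more C or T within 15 bases of the start.
Rps10 (chr17:27635220-27635304, minus strand): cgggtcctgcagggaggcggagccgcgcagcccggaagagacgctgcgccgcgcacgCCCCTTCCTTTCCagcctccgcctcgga
Rpl35 (chr2:39005107-39005191, minus strand): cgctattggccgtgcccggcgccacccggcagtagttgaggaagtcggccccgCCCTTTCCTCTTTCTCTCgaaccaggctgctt
Rps18 (chr17:33955641-33955725, minus strand): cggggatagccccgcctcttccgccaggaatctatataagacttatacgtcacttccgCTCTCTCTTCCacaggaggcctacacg
Rps6 (chr4:86857343-86857427, minus strand): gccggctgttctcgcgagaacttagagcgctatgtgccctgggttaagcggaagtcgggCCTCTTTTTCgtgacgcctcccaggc
Rpl14 (chr9:120571457-120571541, plus strand): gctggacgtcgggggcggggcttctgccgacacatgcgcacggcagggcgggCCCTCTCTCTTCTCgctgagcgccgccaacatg
Rpl12 (chr2:32961652-32961736, plus strand): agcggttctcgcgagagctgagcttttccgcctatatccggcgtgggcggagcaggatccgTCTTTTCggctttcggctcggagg
Rpl7l1 (chr17:46782632-46782716, minus strand): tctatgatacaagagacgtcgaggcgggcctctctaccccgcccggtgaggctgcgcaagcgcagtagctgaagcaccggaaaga

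The longest run was 18 bases in Rpl35, 14 in Rpl14, 13 in Rps10, 11 in Rps18, 10 in Rps6 and 7 in Rpl12, and Rpl7l1 had none in this stretch. RefSeq windows were found for 39 of the 44 members, 46 windows in all, since some genes have several starts. A run of 7 or more pyrimidines lay within 15 bases of the start in 23 of the 46 windows (50%), against 18.6% of all 32851 windows. The letters CCGGAAG, the core bound by ETS factors such as Gabpa, occurred on either strand in 19 windows running from 250 bases before the start to 50 after it (41.3%), against 8.86% of all windows; read on the other strand they hold a short pyrimidine stretch and can overlap the run. The letters TATAAA, the TATA box, occurred on either strand in 6 windows (13.0%), against 13.6%. These matches describe the letters and say nothing of binding.

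The knockout comparison asked which genes differ between Gfi1 knockout and wild-type macrophages, and most ribosomal protein genes differed little. Of the 44 members, 40 did not pass the test, 3 were lower in knockout (Rps6, Rpl14 and Rpl7l1) and 1 was higher (Rpl12), by limma with Benjamini-Hochberg adjustment over all 9999 genes at an adjusted p of 0.05. That is 9.09% of the members, against 43.1% of all genes, of which 21.5% were higher and 21.6% lower. In a fit with random blocks of similar arrays, similar knockout arrays were grouped and all wild-type arrays shared a block. No block held knockout and wild-type arrays together, so the comparison rested on few blocks. In that fit 4.55% of the members passed (Rps6 and Rpl14, both lower), against 9.04% of all genes. The median difference of the members was -0.014 on the log2 scale (-0.0057 over all genes), and the median size of a difference was 0.041, against 0.278 over all genes. A difference within 0.1 either way was found for 81.8% of the members and 20.7% of all genes. The sign of the members' median is not settled: it was 0.0080 after quantile normalization and -0.041 when each array was centred on its median.

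**Figure D1:**
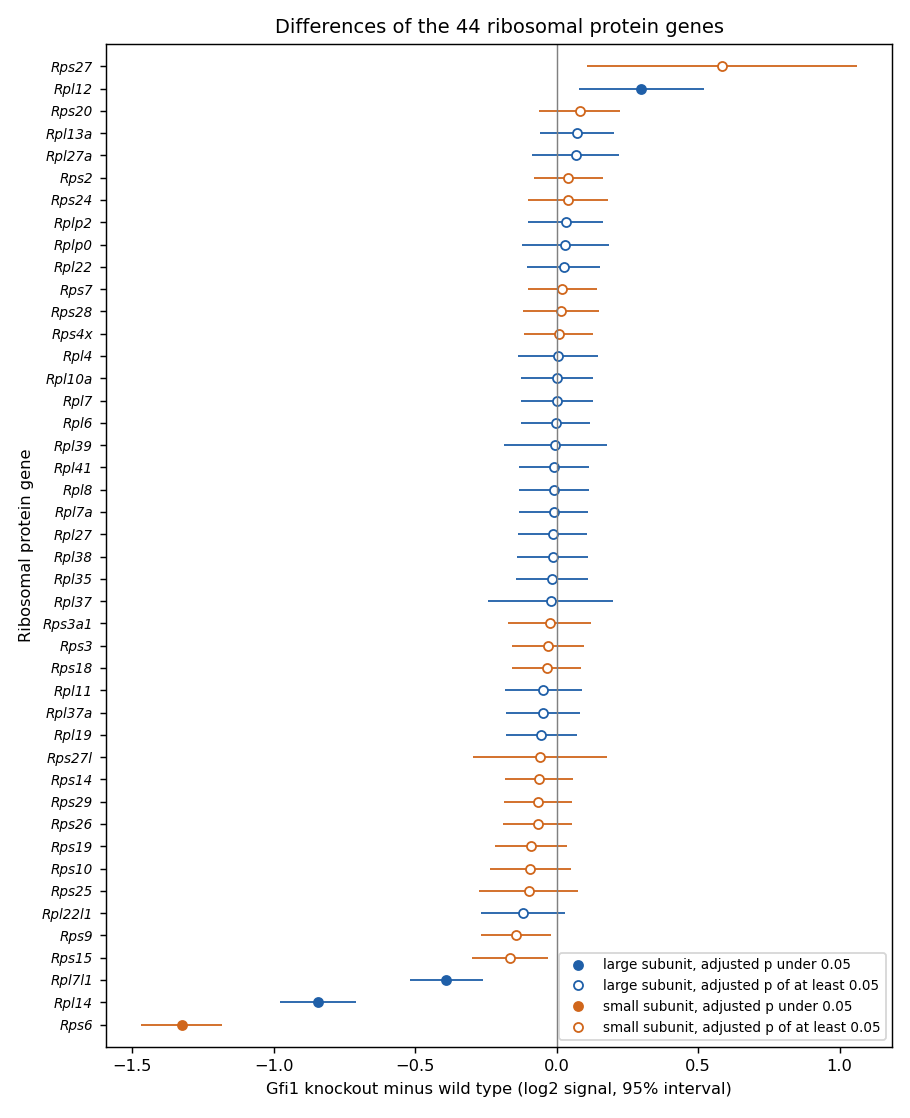
Fitted difference in log2 signal, Gfi1 knockout minus wild type (4 and 3 arrays), for each of the 44 genes, with 95% intervals; blue marks the large and orange the small subunit, and filled points passed an adjusted p of 0.05. Most genes sit on the zero line, and Rps6 at -1.33 and Rpl14 at -0.84 lie farthest from it.

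All 4 members that passed had probe sets that were dim beside the rest of the family, though not all such members passed. Of the 10 with a mean signal under 12, 1 was higher, 3 were lower and 6 did not pass. That is 40% called, near the 43.1% of all genes. Most genes lie under 12, with array medians of 7.15 to 7.25. A signal over 12 was found in every array for 34 members, and none of these passed the test in either direction. Their differences lay between -0.16 and 0.081, and the 95% intervals of these differences reached from -0.30 to 0.22. Only 3 of the 34 were read by probe sets without the endings _a_at, _x_at or _s_at, which mark probes that can match more than 1 transcript. Whether the other bright signals pool several transcripts was not tested. The 34 were part of the 100 genes with a mean signal of at least 12; of the other 66 genes at that level 10 were higher and 13 lower, with a median size of difference of 0.126, against 0.032 for the 34. These signals lie near the top of the scale, where the brightest gene of an array reached 13.39 to 13.56, and other bright genes also differed by less than the 0.278 of all genes. Whether the top of the scale compresses the members' differences was not tested. RMA (robust multi-array average), the method named for these values, gives arrays a common distribution, so a shift shared by most bright genes cannot be read from them.

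The bright members include the parts of the ribosome with the best known separate roles. Rplp2, which forms the stalk that recruits elongation factors, had 13.26, 13.22, 13.24 and 13.23 in knockout arrays, against 13.15, 13.24 and 13.23 in wild-type arrays. Rplp0, the base of the same stalk, differed by 0.031 (SE 0.065, limma adjusted p = 0.730). In both stalk genes the groups overlapped.

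Rpl11, which with Rpl5 and the 5S RNA can bind and block Mdm2, had 12.75, 12.70, 12.82 and 12.79 in knockout, against 12.80, 12.82 and 12.82 in wild type (-0.048, SE 0.058, limma adjusted p = 0.535). Knockout replicates 1, 2 and 4 lay below all wild-type arrays, while replicate 3 was level with them. Rpl13a, known in human monocytes as part of a complex that silences inflammatory mRNAs, differed by 0.072 (SE 0.056). Rps3, which lines the mRNA entry channel and is reported to bind NF-kappaB in human cells, differed by -0.032 (SE 0.054).

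Rps3a1 and Rps29, both small-subunit proteins, were among the members with the brightest representative probe sets, with differences of -0.024 (SE 0.062) and -0.067 (SE 0.052). Rps29 measured 13.11, 13.13, 13.12 and 13.14 in knockout, against 13.21, 13.19 and 13.19 in wild type. The Rps29 groups did not overlap, yet the difference did not pass (limma adjusted p = 0.327).

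Small-subunit members lay slightly lower than large-subunit members in the knockout arrays, but bright probe sets that list several symbols showed the opposite order. The median deviation from the wild-type mean over the small-subunit genes was -0.054, -0.053, -0.037 and -0.020 in knockout replicates 1 to 4, against 0.0054, -0.0037 and -0.0071 in wild-type replicates 1 to 3. Over the large-subunit genes it was -0.0056, -0.033, -0.0015 and 0.0079 in knockout, against -0.0070, 0.0018 and 0.0053 in wild type. Large minus small was therefore positive in every knockout array (0.049, 0.020, 0.035 and 0.028), against -0.012, 0.0054 and 0.012 in wild type. The mean was 0.033 ± 0.012 (SD, n = 4) in knockout and 0.0018 ± 0.013 (SD, n = 3) in wild type, a difference of 0.031 with no test, since it is a score over chosen genes. Over the 74 probe sets that list several symbols and had a mean signal of at least 12, looked at after the members' values were seen, large minus small was -0.035, -0.052, -0.045 and -0.038 in knockout, against 0.0078, -0.0064 and -0.0058 in wild type, a difference of -0.041. The order of the subunits therefore differed between the members and these probe sets. Many of these probe sets list genes that are not members, and some genes are listed more than once. Genes and probe sets changed together, so their parts cannot be told apart.

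**Figure D2:**
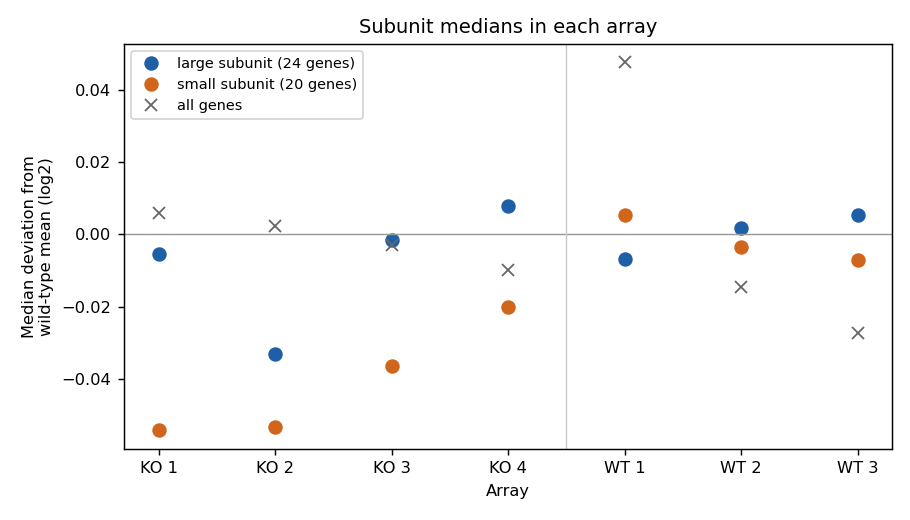
Median deviation from the wild-type mean (log2) in each of the 7 arrays, knockout on the left, for the 24 large-subunit genes (blue), the 20 small-subunit genes (orange) and all 9999 genes (crosses). In the 4 knockout arrays the orange points lie below the blue ones, at -0.054 to -0.020; probe sets that list several symbols, not drawn, gave the opposite order.

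Gaps between the groups were small. All 4 knockout arrays lay below all 3 wild-type arrays for 6 of the 17 small-subunit members with a mean signal of at least 12 (Rps9, Rps14, Rps15, Rps19, Rps26 and Rps29) and for 0 of 17 such large-subunit members. Over the 44 members 9 lay below without overlap and 3 above, against 27.9% of all genes below, 26.5% above and 54.5% either way, so such gaps are common in the table. Among the bright probe sets with several symbols, 13 of 53 of the large subunit lay wholly below wild type and 2 above, and 3 of 21 of the small subunit lay below and 3 above, against 27.8% of all probe sets below and 24.4% above. One small-subunit member of the same brightness, Rps2, lay above wild type in all arrays (0.042, SE 0.052).

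The largest of these shifts were in Rps15 and Rps9, named here after their values were seen. Rps15, which reaches toward the decoding site, had 12.56, 12.51, 12.51 and 12.53 in knockout, against 12.75, 12.65 and 12.67 in wild type, a difference of -0.16 (SE 0.057, limma adjusted p = 0.0508). Its other probe set gave -0.15. For other genes of the 6 the further probe sets differed from the representative one: those of Rps29 gave -0.017 and 0.056, that of Rps14 -0.016, and those of Rps9, both dim, 0.048 and -0.059. Rps9, near the mRNA entry, had 12.42, 12.38, 12.39 and 12.43 in knockout, against 12.56, 12.53 and 12.56 in wild type (-0.15, SE 0.053, limma adjusted p = 0.0601). Both therefore lay just outside the threshold.

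Rps19, the gene most often mutated in Diamond-Blackfan anaemia, differed by -0.091 (SE 0.055, limma adjusted p = 0.216), and Rps26, which contacts mRNA near the exit, by -0.067 (SE 0.052, limma adjusted p = 0.324). With an intensity trend and a robust prior, limma called 9 members lower, the 3 named above and those same 6 small-subunit genes, and 2 higher; in that fit 21.9% of all genes were lower and 21.6% higher. Centring on the median gave 5 lower and 1 higher, and quantile normalization 3 lower and 2 higher. In those fits 44.1% and 44.6% of all genes passed.

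The members that departed from the family were tested by centring each array on its median over the 44 genes and fitting all genes again. The same 4 genes passed, 3 below the family and 1 above it, while 42.0% of all genes passed on that scale, 20.8% lower and 21.2% higher. All 4 were read by probe sets with a mean signal under 9, and relative to the family they stood at -1.32 (Rps6), -0.83 (Rpl14), -0.38 (Rpl7l1) and 0.31 (Rpl12).

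Rps6 encodes the small-subunit protein phosphorylated by the S6 kinases downstream of mTORC1. Its signal was 6.41, 6.42, 6.29 and 6.39 in knockout arrays, against 7.74, 7.70 and 7.67 in wild-type arrays. All knockout arrays were lower than all wild-type arrays, and the knockout arrays lay within 0.13 of each other. The difference was -1.33 (SE 0.060, limma adjusted p = 2.02e-05), a signal 39.9% of wild type.

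Rpl14, a large-subunit protein, had 6.85, 6.89, 6.96 and 6.93 in knockout, against 7.73, 7.74 and 7.77 in wild type. It fell by 0.84 (SE 0.057, limma adjusted p = 7.46e-05), again evenly over the knockout arrays. Rps6 and Rpl14 passed under all 19 alternative settings, with adjusted p up to 0.00235 and 0.00981.

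Rpl12, a protein at the base of the stalk, had 5.66, 5.86, 5.76 and 5.92 in knockout, against 5.65, 5.40 and 5.44 in wild type. The lowest knockout and highest wild-type arrays nearly touched. The difference of 0.30 (SE 0.094, limma adjusted p = 0.0379) passed in 9 of 18 alternatives, with adjusted p from 0.00638 to 0.784, and ended without knockout replicate 2 (0.0818), 3 (0.0541) or 4 (0.0745), and without wild-type replicate 2 (0.139) or 3 (0.127).

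Rps27, a zinc finger protein of the small subunit, showed the largest positive difference but did not pass. It measured 8.08, 7.91, 7.41 and 7.25 in knockout, against 7.08, 7.02 and 7.14 in wild type. All knockout arrays were higher, replicates 1 and 2 by far more than replicates 3 and 4. The difference was 0.58 (SE 0.20, limma adjusted p = 0.0521), and it passed in 9 of 19 alternatives (adjusted p from 7.45e-05 to 0.263), among them those without knockout replicate 3 (0.67, adjusted p = 0.0426) or 4 (0.72, adjusted p = 0.0172).

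**Figure D3:**
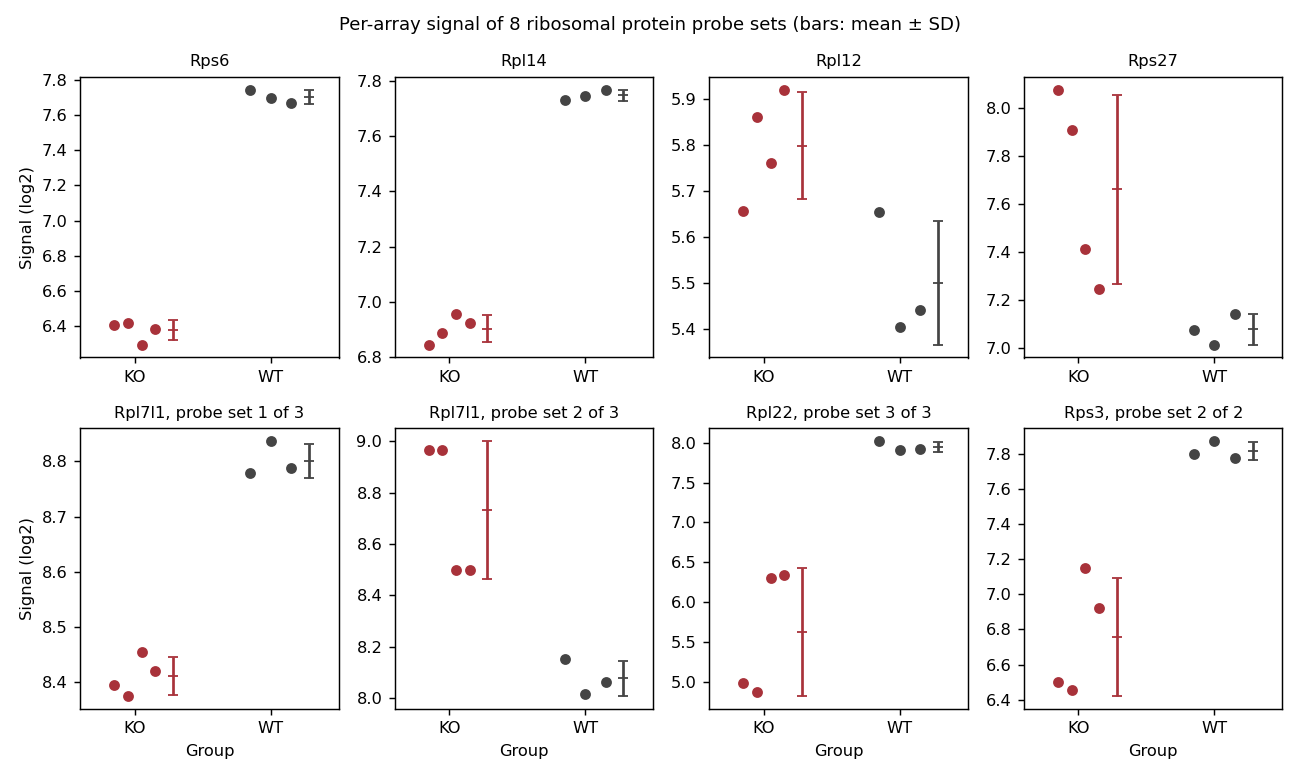
Log2 signal in each array (points) with mean and SD (bars) for 8 ribosomal protein probe sets, knockout left of wild type; where a gene has several probe sets they are numbered from the brightest. Rps6 and Rpl14 were even over the knockout arrays, while the third probe set of Rpl22 and the second of Rps3 formed 2 pairs of knockout arrays; the vertical axes differ and do not start at 0.

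For Rps6, Rpl14, Rpl12 and Rps27 the array carries brighter probe sets whose annotation adds another symbol, which keeps them from being assigned to 1 gene. Of 9 probe sets listing Rps6 together with a pseudogene, none passed, and the 4 with a signal of at least 10 differed by 0.0045 to 0.089. Of 5 listing Rpl14 with a pseudogene, all with a signal over 11, none passed, at -0.0070 to 0.055. The 2 listing Rpl12 among others gave 0.00064 and 0.051, and the 1 listing Rps27 gave -0.068 (limma adjusted p = 0.375). The falls of Rps6 and Rpl14 and the rise of Rpl12 were thus seen by a dim probe set alone, and not by the bright ones whose annotation lists further genes. Which part of the transcript the dim probe sets bind was not examined here.

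Paralogs, genes that arose as copies of family members, behaved differently from one another. Rpl7l1, a relative of Rpl7, is read by 3 probe sets that disagreed. The representative one had 8.40, 8.38, 8.46 and 8.42 in knockout, against 8.78, 8.84 and 8.79 in wild type (-0.39, SE 0.055, limma adjusted p = 0.00158).

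The next probe set for Rpl7l1, with a mean signal of 8.45 against 8.58 for the first, went the other way. It had 8.96, 8.96, 8.50 and 8.50 in knockout, against 8.15, 8.02 and 8.06 in wild type, a difference of 0.65 (SE 0.15, limma adjusted p = 0.0122 over all 19431 probe sets). The third probe set gave -0.35 (SE 0.095, limma adjusted p = 0.0253). The average of the 3 differed by -0.028 (limma adjusted p = 0.791), so the call for Rpl7l1 rests on which probe set is used, and its adjusted p ran from 0.000496 to 0.791 over the alternatives. Rpl7 itself differed by 0.0016 (SE 0.054).

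Rpl22l1 replaces Rpl22 in part of the ribosomes and is held down by it in mouse cells. Its signal was 11.55, 11.44, 11.42 and 11.48 in knockout, against 11.53, 11.64 and 11.60 in wild type (-0.12, SE 0.063, limma adjusted p = 0.161). The groups overlapped through knockout replicate 1 and wild-type replicate 1. Rpl22 differed by 0.025 (SE 0.055) in its brightest probe set and by 0.033 (SE 0.069) in the next.

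The third Rpl22 probe set showed the largest fall of all single-symbol probe sets of the family. It had 4.99, 4.87, 6.31 and 6.33 in knockout, against 8.02, 7.91 and 7.93 in wild type. Replicates 1 and 2 fell farther than replicates 3 and 4, and the difference was -2.33 (SE 0.40, limma adjusted p = 0.00439 over all probe sets). Taking the mean of the 3 probe sets made Rpl22 pass as lower (-0.76, limma adjusted p = 0.00765).

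Rps27l, a paralog of Rps27 that p53 induces in human cells, had 12.22, 12.25, 12.54 and 12.46 in knockout, against 12.32, 12.49 and 12.47 in wild type. Replicates 1 and 2 lay below every wild-type array and replicates 3 and 4 among or above them. The difference was -0.059 (SE 0.10, limma adjusted p = 0.662). Its other 2 probe sets gave -0.060 and -0.15. Without knockout replicates 3 and 4 it passed as lower (-0.19, limma adjusted p = 0.0461), in a fit where 68.1% of all genes passed. Without replicates 1 and 2 the difference was 0.074.

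Rps27l also had the widest spread over the knockout arrays of the members with a mean signal of at least 12, at 0.32. Among all 44 it was exceeded by Rps27, with a spread of 0.83, and followed by Rpl12 (0.26), Rpl39 (0.25) and Rpl37 (0.24), all 3 with a mean signal under 10. Rpl39, which lines the exit tunnel, differed by -0.0045 (SE 0.077) and Rpl37 by -0.022 (SE 0.094).

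Probe sets of the same gene could be compared for 20 members. Of their 45 further probe sets, 26 (57.8%) had the sign of the representative one, and in 1 case, Rpl7l1, 2 probe sets of a gene passed in opposite directions. Where signals were at least 10, the probe sets of a gene differed little: over 17 genes the span of their differences had a median of 0.058 and ran from 0.0077 to 0.317. The widest span belonged to Rpl13a, whose 4 probe sets gave 0.072, -0.0031, -0.095 and -0.25. The last of these had 10.32, 10.36, 10.50 and 10.46 in knockout, against 10.65, 10.67 and 10.66 in wild type, and passed (SE 0.068, limma adjusted p = 0.0262).

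Calls gathered among dim probe sets. Of the 89 single-symbol probe sets, 8 were lower and 3 higher (12.4%), against 39.4% of all 19431 probe sets, 20.5% lower and 18.8% higher. Of the 70 with a mean signal of at least 10, a limit chosen after the values were seen, 1 passed (1.43%). Of the 19 below it 10 passed (52.6%). The second Rps3 probe set is an example. It had 6.50, 6.46, 7.15 and 6.92 in knockout, against 7.80, 7.87 and 7.77 in wild type, a difference of -1.06 (SE 0.18, limma adjusted p = 0.00368), while the bright Rps3 probe set differed by -0.032. What the dim probe sets measure, and whether it is ribosomal protein mRNA, was not tested.

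**Figure D4:**
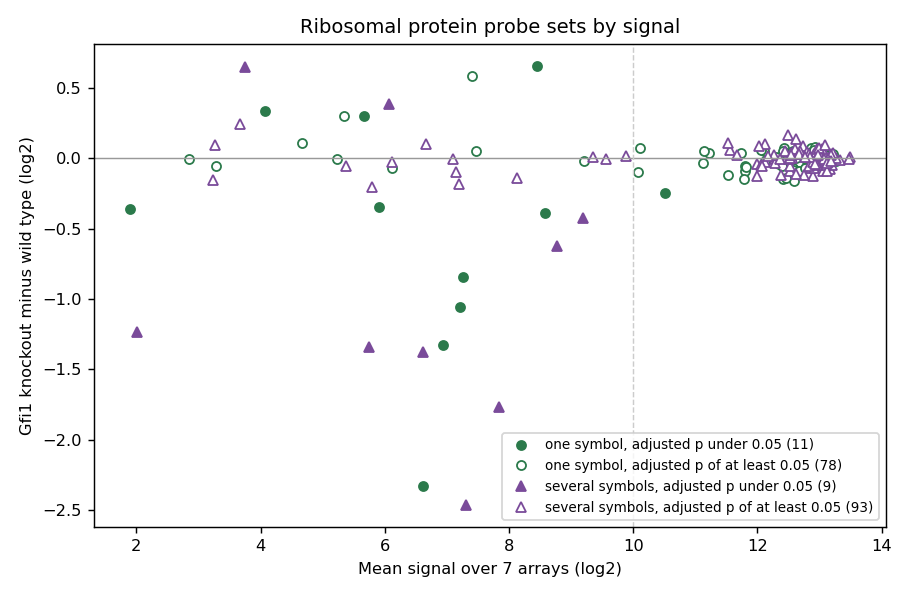
Difference between knockout and wild type (log2) against mean signal over the 7 arrays for probe sets of ribosomal protein genes, with 1 gene symbol (circles, 89) or several (triangles, 102); filled symbols passed an adjusted p of 0.05 over all 19431 probe sets, and the dashed line marks a signal of 10. To the right of it the points lie within 0.25 of zero.

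Ribosomal proteins whose symbols fall outside the rule were as level as the members. Rpsa, a small-subunit protein also known as a laminin receptor, differed by -0.021 (SE 0.054), and Fau, which is made as a fusion with a ubiquitin-like protein, by -0.032 (SE 0.055). Of 19 measured elongation factors and other genes whose mRNAs begin with a pyrimidine tract, 1 was higher and 3 lower in knockout. Over all genes 21.5% were higher and 21.6% lower. The median of the 19 was -0.043. Among the brightest, named after their values were seen, were the elongation factor gene Eef1a1 (0.082, SE 0.055) and Tpt1 (-0.013, SE 0.052), and neither passed.

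The 4 that passed were the splicing factor gene Hnrnpa1 (0.88, SE 0.064), the initiation factor gene Eif4b (-1.13, SE 0.25), the filament gene Vim (-0.81, SE 0.21) and Eif3k (-0.27, SE 0.069). In Eif4b and Vim the deviation from wild type was larger in knockout replicates 1 and 2 (-1.62 and -1.51 for Eif4b) than in replicates 3 and 4 (-0.68 and -0.72). Hnrnpa1 was even, at 0.79 to 0.92.

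Of 11 genes that carry ribosomal proteins or assemble subunits, 3 rose and 0 fell, with a median of 0.19. Nob1, the nuclease that trims the small-subunit RNA, was higher by 0.45 (SE 0.066), Heatr3, a carrier of Rpl5, by 0.43 (SE 0.10), and Ltv1, a small-subunit assembly factor, by 0.41 (SE 0.087). Over all genes 21.5% were higher and 21.6% lower.

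Of 19 measured regulators of ribosomal protein mRNA, 4 rose and 3 fell, with a median of 0.040, near the shares over all genes (21.5% and 21.6%). Myc, an activator of ribosome genes, was higher by 1.31 (SE 0.18), at low mean signals of 5.54 in knockout and 4.23 in wild type. Its relative Mycn, named after its values were seen, was far brighter, at 13.41 in knockout and 13.24 in wild type. It also passed as higher, but by only 0.17 (SE 0.054, limma adjusted p = 0.0372). Eif4ebp1, the translation repressor that mTORC1 inactivates, was higher by 0.62 (SE 0.063). Rps6ka3, a kinase that can phosphorylate Rps6, fell by 1.76 (SE 0.40), with deviations of -2.44 and -2.45 in knockout replicates 1 and 2 and of -0.99 and -1.16 in replicates 3 and 4. Tsc1, an inhibitor of mTORC1, fell by 0.48 (SE 0.057). Of the genes introduced above, Mtor (0.082, SE 0.057) and Larp1 (0.13, SE 0.081), did not pass.

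Of 6 measured genes that link ribosome stress to p53, 2 rose and 2 fell, against 21.5% higher and 21.6% lower over all genes. Mdm2, the p53 ligase that Rpl11 can block, rose by 0.53 (SE 0.055) and its partner Mdm4 by 0.58 (SE 0.17). The p53 target genes Ccng1 and Phlda3 fell by 1.16 (SE 0.34) and 0.87 (SE 0.19). The p53 targets Zmat3 and Cdkn1a, named after their values were seen, did not pass. Zmat3 differed by -1.14 (SE 0.44, limma adjusted p = 0.0742), with all knockout arrays below all wild-type arrays, and Cdkn1a by 0.043 (SE 0.064).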

How the data were processed

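Per the submitters' processing notes, values came from RMA, with no version given. The authors deposited 1 column of normalized intensity per Affymetrix array, 19431 probe sets on a linear scale. Here log2 was taken with no pseudocount. Of the probe sets 17335 had 1 gene symbol, 532 several and 1564 none in the platform annotation, and 17297 were matched by gene number to RefSeq GRCm38.p6, with 0 symbols changed. Gfi1 knockout (4 arrays) was compared with wild type (3 arrays) by limma 3.58.1 in R 4.3.3, with moderated two-sided tests, 5 residual and 2.20 prior degrees of freedom, and Benjamini-Hochberg adjustment over 9999 genes, or over 19431 probe sets where said. The fit was tried on simulated data with independent arrays and wild-type spread only. The likeness between knockout arrays was not simulated, so the trial does not show the rate of false calls here. Arrays have no read depth, so their number limits the precision. Family members and gene lists were chosen with earlier results of these data known. Named members are those past the threshold, stalk and 5S genes, paralogs with partners, members with other reported roles, the 3 highest and 3 lowest signals, the 5 widest knockout ranges and members whose probe sets pass in opposite directions, and from other lists up to 4 genes past the threshold. Exceptions are genes named to show probe set agreement, the groups that do not overlap, a flat list, the other listed p53 targets or the bright relative of Myc. Alternatives covered normalization, filters, variance priors, weights, probe set choice, blocks and left-out arrays. Probe sets with several symbols were not assigned to a gene.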

Additional observations from a re-analysis of the deposited data

Results flagged for a closer look

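Among the 4 knockout arrays, 1 value stood apart from the rest. Rpl39 had a log2 signal of 5.40 in knockout replicate 4, against 5.15 to 5.19 in the other 3 knockout arrays. The gap was 0.849 of the range, above the critical value of 0.829. In all, 22 sets of 4 values were looked at, and chance alone marks about 1 in 20, so 1 such value is near that rate.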

How the results depend on the processing

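The count of members higher in knockout, 1 as reported, became 2 with quantile normalization, array weights, a robust prior with an intensity trend, without _x_at and _s_at probe sets, and without knockout replicates 1 and 2. It became 0 with random blocks of similar arrays and with a test against a fold of 1.2, settings in which 9.04% and 17.5% of all genes passed in place of 43.1%, and 0 to 1 when single arrays were left out (0 without knockout replicate 2 and without wild-type replicate 2 or 3). The count lower, 3 as reported, became 5 with median centring, without genes under the 40th percentile, and with the mean of probe sets, 9 with the trend, 6 without either pair of knockout arrays, 4 with array weights or without _x_at and _s_at probe sets, and 2 with random blocks or against a fold of 1.2 (Rpl7l1 no longer passed in either), and was 3 to 3 when single arrays were left out. Over all genes, 57.0% passed without knockout replicates 1 and 2, 68.1% without replicates 3 and 4, and 51.7% with array weights. In the other settings that raised the count lower, 42.3% to 49.0% of all genes passed, against 43.1% in the main fit. Relative to the family, the count above became 2 with array weights or without knockout replicates 1 and 2, and 3 without _x_at and _s_at probe sets. It became 0 without genes under the 40th percentile, with random blocks or against a fold of 1.2, and was 0 to 1 without single arrays. The count below became 5 with the trend and 2 with random blocks or against a fold of 1.2, and stayed at 3 to 3 without single arrays. The family median was 0.0080 with quantile normalization, -0.041 with median centring, and -0.021 to -0.0076 without single arrays. Large minus small ran from 0.026 to 0.039 without single arrays and was 0.036 over the 34 bright members, but -0.041 over 74 bright probe sets with several symbols, both choices made after seeing the data. Agreeing probe sets numbered 23 to 29 without single arrays.

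Replicate numbers did not pair the samples: same-numbered arrays deviated together with r of 0.12, -0.090 and 0.11. Knockout replicates 1 and 2 correlated best with wild-type replicate 1 (r of 0.12 for each). Knockout replicates 3 and 4 did so with wild-type replicate 2 (0.11 and 0.080). All these correlations were weak. With the replicate block 1 member was higher and 3 were lower, the higher one being Rps27 and not Rpl12 (adjusted p = 0.145). In that fit 38.1% of all genes passed.

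Of 376 values for 20 named members under alternatives, 323 kept their direction and side of the threshold, 15 newly passed, 12 no longer passed and 26 changed sign. Sign changes were -0.068 (mean of probe sets) and -0.0031 (without _x_at and _s_at) for Rpl13a, and -0.0025 (median centring), -0.76 (mean of probe sets) and -0.0017 (without knockout replicates 3 and 4) for Rpl22. For Rpl39 they were 0.034 (quantile normalization), 0.016 (array weights) and 0.054 (without knockout replicates 1 and 2), and for Rpl7 -0.026 (median centring), -0.0060 (replicate block) and -0.022 (without knockout replicates 3 and 4). Without knockout replicates 1 and 2, Rpl37 was 0.032, Rps27l 0.074 and Rps3a1 0.032, and without 3 and 4 Rplp0 was -0.023. Without single arrays Rpl37 ran from -0.10 to 0.039, Rpl39 from -0.062 to 0.021, Rpl7 from -0.0067 to 0.016, Rplp0 from -0.0055 to 0.055 and Rps3a1 from -0.048 to 0.0026. With random blocks Rpl7l1 did not pass (adjusted p = 0.125, over alternatives 0.000496 to 0.791). Except for the filter, the left-out arrays and the probe set choices, which change what is tested, the cause was not tested.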

Other observations

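The 102 probe sets that list a ribosomal protein symbol together with other symbols were assigned to no gene, and their values are given by what the annotation lists. Of these 2 were higher and 7 lower in knockout (8.82%, against 39.4% of all probe sets, limma adjusted p of 0.05). All 9 had a mean signal under 10, where they made up 39.1% of 23 probe sets. Of the 79 at or above 10 none passed, with differences of -0.13 to 0.16. The probe set listing Rpl15 and Gm10224 had 5.68, 5.63, 6.84 and 6.83 in knockout, against 8.67, 8.69 and 8.76 in wild type, a difference of -2.46 (SE 0.34). Another listing Rpl31 and a pseudogene differed by -1.77 (SE 0.11). Of 3 that list Rpl5 and a pseudogene, the bright one had 13.22, 13.21, 13.28 and 13.33 in knockout, against 13.24, 13.28 and 13.27 in wild type (-0.0023, SE 0.062), while both dim ones passed as lower, at -1.37 (SE 0.22) and -1.34 (SE 0.34). The probe set listing Rpl23 that passed differed by -0.62 (SE 0.072).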
